A study of Drosophila melanogaster with 2 samples.

Results

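The UDP-glycosyltransferase family was described in head RNA of adult female Drosophila melanogaster, the fruit fly, after exposure to alcohol vapour. Members were the genes whose symbol in the RefSeq annotation begins with Ugt followed by a digit. This gave 35 annotated genes, of which 29 were listed in the deposited tables, among 11256 listed genes in all. Of the 29, 16 were measured, that is, had at least 50 reads over both libraries, among 7822 measured genes. Wild-type Canton-S females of 3 to 5 days were used in both groups. In the ethanol group, 15 min of air saturated with ethanol sedated all flies and 30 min in air free of ethanol followed, while controls spent the whole 45 min in air free of ethanol. About 180 flies were pooled per group, and the poly(A) RNA of their heads made up 1 library per group. The differences given here therefore have no replicate check, and the treatment has no p-value.

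UDP-glycosyltransferases are enzymes of the endoplasmic reticulum membrane that move a sugar from a nucleotide carrier onto small fat-soluble molecules. The product is more soluble in water and easier to excrete, so the family is counted with the cytochrome P450 enzymes and the glutathione S-transferases among the detoxification enzymes. Insects mainly use UDP-glucose as the sugar donor, whereas mammals mainly use UDP-glucuronic acid. In mammals a minor part of ingested ethanol is conjugated this way to ethyl glucuronide. In insect heads the family is best known from the antenna, where several members are thought to clear odorants and pheromones.

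Depth was 11.76 M assigned reads in the control library and 11.03 M after ethanol, and the RNA integrity number, a scale of how intact the RNA is, was 6.80 and 6.40. Levels are given as RPKM, that is, reads divided by transcript length and by the total of the library. A ratio is the share of reads after ethanol divided by the share in the control, with an exact 95% Clopper-Pearson interval, and a log2 ratio above 0 means higher after ethanol. These intervals hold counting error alone and say nothing of the spread between pools. Since whole heads were sequenced, fewer cells of a type and less RNA per cell cannot be told apart.

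The family was dominated by Ugt35B1 (NM_079589, chromosome arm 3R), a gene known from studies of the antenna. Ugt35B1 had 4664 control reads, or 238 RPKM (interval 231 to 245), and 4948 ethanol reads, or 269 RPKM (262 to 277). It was more abundant per length than 96.8% of genes in the control library and 97.0% after ethanol. It took 39.9% of the family's 11681 control reads (exact binomial interval 39.0% to 40.8%) and 43.9% of its 11280 ethanol reads (42.9% to 44.8%).

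A group of 3 genes followed, each below Ugt35B1 by a wide margin. Ugt302C1 (NM_144369, 3R; older symbol Ugt86Da) stood at 62.6 RPKM in the control (1468 reads, interval 59.4 to 65.8) and at 50.0 RPKM after ethanol (1100 reads, 47.1 to 53.0). Ugt49B1 (NM_137719, 2R) stood at 59.5 RPKM (1234 reads, 56.3 to 63.0) and 58.9 RPKM (1145 reads, 55.6 to 62.4). Ugt301D1 (NM_136038, 2L) stood at 47.5 RPKM (1086 reads, 44.7 to 50.4) and 51.7 RPKM (1109 reads, 48.7 to 54.9). In the control library Ugt302C1 and Ugt49B1 had overlapping intervals and both lay above Ugt301D1. In the ethanol library Ugt302C1 had moved from rank 2 to rank 4 of the family, its interval overlapped that of Ugt301D1, and it lay below Ugt49B1.

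The next 2 genes changed places as well. Ugt35C1 (NM_001104274, 3R; older symbol Ugt86Dd), in which natural variation has been linked to the resistance of larvae to nicotine, had 626 control and 479 ethanol reads, or 32.1 and 26.2 RPKM. Ugt35A1 (NM_079590, 3R) had 645 and 638 reads, or 30.8 and 32.5 RPKM. Their intervals overlapped in the control (29.6 to 34.7 and 28.5 to 33.3 RPKM), whereas after ethanol Ugt35A1 (30.0 to 35.1) lay above Ugt35C1 (23.9 to 28.6). Together the 6 most abundant members held 83.2% of the family's control reads and 83.5% of its ethanol reads.

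The rest of the family had lower levels. Ugt36D1 (24.0 and 24.1 RPKM) and Ugt316A1 (12.3 and 10.5 RPKM) were the only other members at 10 RPKM or more in both libraries. Ugt36A1, also known as Dot, whose regulatory DNA is used to mark pericardial cells and the lymph gland, stood at 8.81 and 8.62 RPKM. Of the 29 listed members, 8 had 10 RPKM or more in the control library, 8 had 1 to 10 RPKM, 9 had less than 1 RPKM and 4 had no reads. The corresponding counts in the ethanol library were 9, 7, 10 and 3. With 0 reads, a listed gene could still lie at up to 0.255 RPM in the control library and 0.272 after ethanol, where RPM is RPKM without the division by length. The other 6 annotated members, Ugt303A1, Ugt303B1, Ugt303B2, Ugt303B3, Ugt35D1 and Ugt49B2, have no row in the tables used here and were not analysed.

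**Figure D1:**
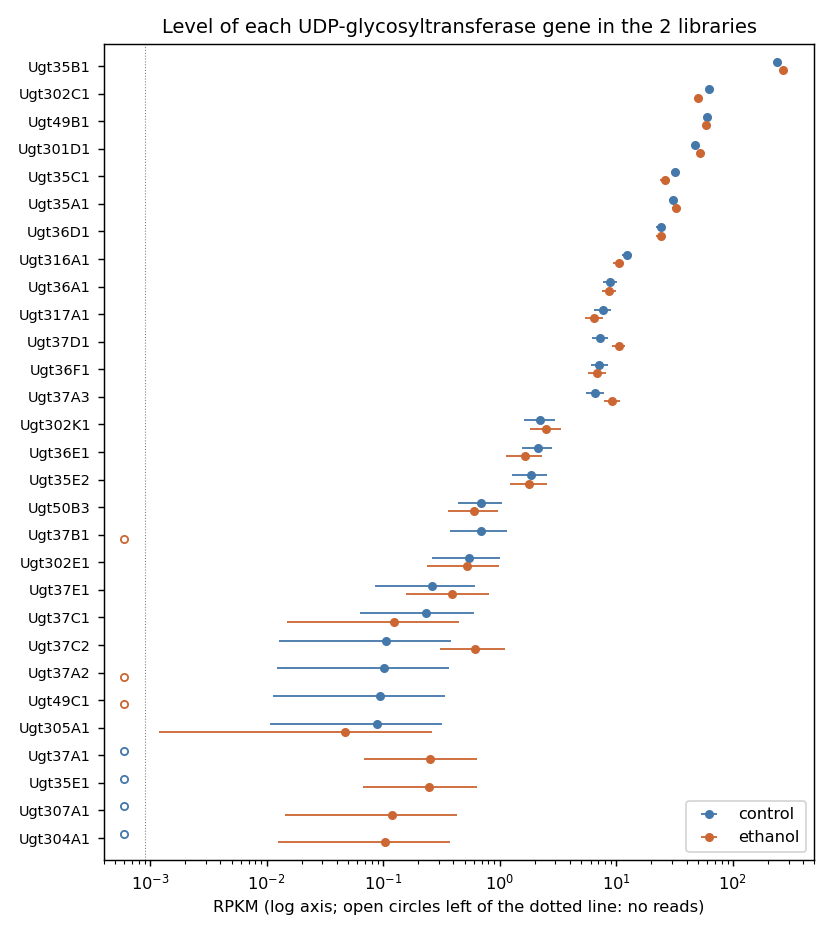
Level of the 29 listed family members, in RPKM on a log axis, in the control (blue) and ethanol (orange) library; bars are 95% counting intervals and open circles mark libraries with no reads. Ugt35B1 at 238 and 269 RPKM stands alone at the top, and 13 members have fewer than 50 reads over both libraries.

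Levels differed widely between genes that lie side by side on the chromosome. With members joined into a group where at most 5 other genes lie between them, 23 of the 35 lay in 6 groups of 2 or more, and 12 lay alone. The largest group, of 10 genes on 3R, holds in order Ugt35C1, Ugt302K1, Ugt302E1, Ugt302C1, Ugt35E1, Ugt35E2, Ugt35B1, Ugt35A1, Ugt304A1 and Ugt303A1. It thus contains 4 of the 6 most abundant members of the family. Ugt35E2, the direct neighbour of Ugt35B1, had 35 control and 32 ethanol reads (1.84 and 1.80 RPKM). Ugt35E1, the gene on the other side of Ugt35E2, had 0 and 4 reads. Ugt302E1, next to Ugt302C1, had 10 and 9 reads (0.543 and 0.521 RPKM), and Ugt302K1 had 44 and 46 (2.23 and 2.49 RPKM). Abundant members and members with few reads thus lay side by side in both libraries. Ugt303A1, at the end of the group, has no row in the tables used here.

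The other groups with rows in the tables had spreads of the same kind. On 2R, Ugt49B1 at 59.5 control RPKM lies next to Ugt49C1, which had 2 control and 0 ethanol reads. On 3R, Ugt37A3 (6.58 and 9.19 RPKM) lies next to Ugt37A2, which also had 2 and 0 reads. On 2L, Ugt37D1 (7.25 and 10.5 RPKM) follows Ugt37C2 and Ugt37E1, both under 1 RPKM in both libraries. The 3 neighbouring Ugt36 genes on 2L were all measured, with Ugt36D1 (24.0 control RPKM) above Ugt36F1 (7.13) and Ugt36E1 (2.11). The place of Ugt36E1 depends on the length used, since only 13.2% of its transcript was covered in the control. Over the covered stretch alone it would stand at 16.0 control RPKM, and Ugt36F1 at 7.34.

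**Figure D2:**
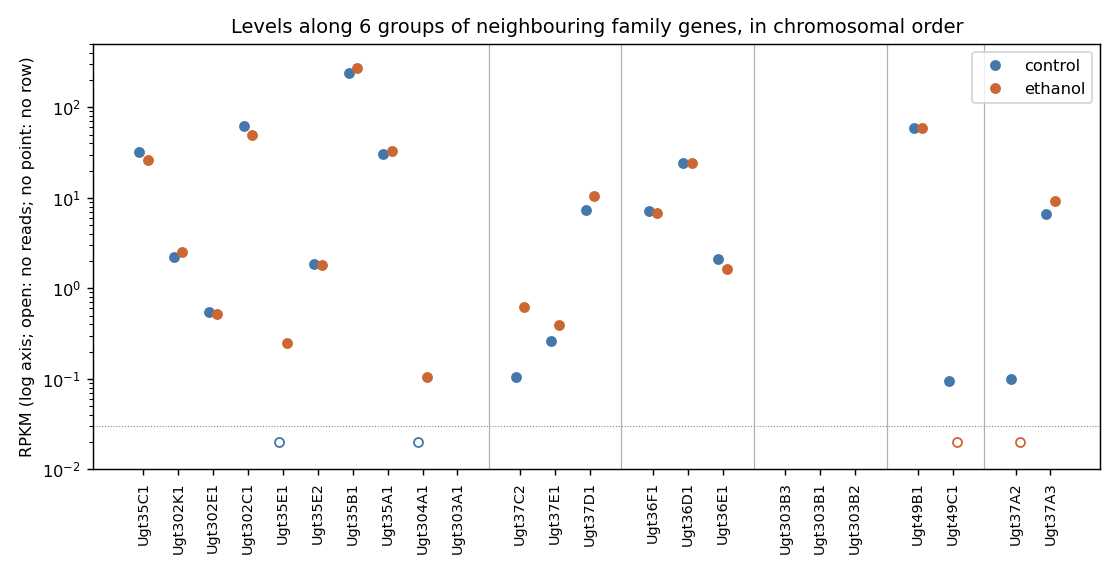
Level of the 23 members that lie in 6 groups of neighbouring family genes, in chromosomal order along the horizontal axis, with grey lines between groups; the vertical axis is RPKM on a log scale, control in blue and ethanol in orange, and open circles mark no reads, while Ugt303A1 and the 3 Ugt303B genes have no row and no point. In the group of 10 on the left, Ugt35B1 at 238 control RPKM lies beside Ugt35E2 at 1.84.

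The comparison of ethanol with control asked which members differed shortly after sedation. No measured member differed by as much as 1.5-fold. At the 2-fold level with an interval that excludes a ratio of 1, 0 of 16 members were higher and 0 lower, beside 1.75% and 0.741% of the 7822 measured genes. At the 1.5-fold level, again 0 of 16 were higher and 0 lower, beside 5.97% and 2.86% of measured genes. At shares this low, 0 of 16 does not set the family apart. The median log2 ratio was -0.023 for the members and 0.049 for all measured genes. The members ranged from -0.35 to 0.53, whereas the middle part of the other measured genes, from the 5th to the 95th percentile, ran from -0.49 to 0.66.

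Smaller differences went in both directions. With an interval that excludes 1 at any fold, 4 of 16 members were higher (25.0%, beside 23.9% of measured genes) and 3 were lower (18.8%, beside 15.0%), shares close to those of all genes. The 4 were Ugt37D1, Ugt37A3, Ugt35B1 and Ugt301D1, and the 3 were Ugt302C1, Ugt35C1 and Ugt316A1. In the authors' deposited table, whose p-values compare these 2 libraries and not the conditions, 6 of 30 member accessions had an FDR under 0.05, beside 17.6% of all 15090 accessions.

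The members with the largest ratios belonged to the Ugt37 group. Ugt37D1 (2L; older symbol Ugt36Bc) had 165 control and 224 ethanol reads, a ratio of 1.45 (interval 1.18 to 1.78). Ugt37A3 (NM_141972, 3R) had 129 and 169 reads, a ratio of 1.40 (1.11 to 1.77). Ratios at least as high were found in 8.12% of all measured genes for Ugt37D1 and in 9.88% for Ugt37A3. These 2 genes lie on different chromosomes and were the only measured members of the 8 Ugt37 genes. The reads of Ugt37D1 were listed under 2 of its 3 annotated transcripts, NM_144370 with 124 and 176 reads and NM_165193 with 41 and 48. The transcripts share nearly all their bases, so the listing does not show which of them gave the reads. NM_144370 had an interval of the log2 ratio above 0 (0.60, 0.26 to 0.94), and that of NM_165193 included 0 (0.32, -0.31 to 0.96). In the authors' deposited table the FDR was 0.0275 for Ugt37A3 and 0.00392 for NM_144370.

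The other Ugt37 genes had few reads and went both ways. Ugt37B1 (NM_080269, 2L) had 14 control reads, spread over 46.1% of its transcript, and 0 ethanol reads. The exact interval of its ratio ran up to 0.322. Only 4 of the 11256 genes had 0 ethanol reads with at least 14 control reads, and 3 had the reverse. Its FDR in the authors' deposited table was 0.00129. Ugt37C2 (NM_144372, 2L) had 2 control and 11 ethanol reads, a ratio of 5.87 with an interval of 1.28 to 54.5. Both were singled out after their values had been seen, and both lie under the minimum of 50 reads. Ugt37E1, between Ugt37C2 and Ugt37D1 on the chromosome, had 5 and 7 reads, and Ugt37C1 had 4 and 2. Ugt37A1 had 0 and 4. Summed over the 8 genes, the group had 321 control and 417 ethanol reads (log2 ratio 0.47, interval 0.26 to 0.69), most of them from Ugt37D1 and Ugt37A3. Summed in the same way, the Ugt35 genes had a log2 ratio of 0.12 (0.073 to 0.18), the Ugt302 genes of -0.30 (-0.42 to -0.19) and the Ugt36 genes of -0.030 (-0.16 to 0.10). Each sum leaned on its most abundant members, and the Ugt35 group held genes with ratios in both directions.

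Among the abundant members, Ugt35B1 and Ugt302C1 went in opposite directions. Ugt35B1 was 1.13-fold higher after ethanol (interval 1.09 to 1.18, log2 ratio 0.18). Ugt302C1 had a ratio of 0.799 (0.738 to 0.865, log2 ratio -0.32). Ugt35C1, in the same chromosomal group, had a ratio of 0.816 (0.723 to 0.921, log2 ratio -0.29). In the authors' deposited table the FDR was 4.5e-08 for Ugt35B1, 5.01e-07 for Ugt302C1 and 0.00733 for Ugt35C1. Ugt301D1 had a log2 ratio of 0.12 with an interval of 0.0014 to 0.25, which included 0 under each of 3 other scalings of the libraries. Ugt316A1 had a ratio of 0.853 (0.734 to 0.991). The FDR of these last genes in the authors' deposited table was 0.165 and 0.135.

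Ratios of this size were common among all genes. Ratios as low as that of Ugt302C1 or lower occurred in 10.6% of measured genes, and ratios as high as that of Ugt35B1 or higher in 32.1%. These shares take in many genes with far fewer reads and were not computed at like depth. The SD over all measured genes was 0.38. The 8 members with at least 500 reads ranged from -0.32 to 0.18 on the log2 scale, with an SD of 0.20 across genes, beside 0.29 for all 4045 genes of that depth. Of those 4045 genes, 69.0% lay in the members' range.

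The remaining 9 measured members had intervals that included 1. Ugt49B1 had a log2 ratio of -0.015 (interval -0.13 to 0.10), Ugt36D1 of 0.0039 (-0.17 to 0.18) and Ugt35A1 of 0.077 (-0.083 to 0.24), the narrowest intervals of the 9. Ugt36A1 (0.978), Ugt36F1 (0.953) and Ugt317A1 (0.843) had from 267 to 439 reads and wider intervals. That of Ugt317A1 (0.660 to 1.07) just passed 1.5-fold on the lower side. For Ugt302K1 (1.12, 0.721 to 1.73), Ugt35E2 (0.975, 0.585 to 1.62) and Ugt36E1 (0.782, 0.484 to 1.25), with at most 90 reads, the intervals leave room for changes of over 1.5-fold.

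**Figure D3:**
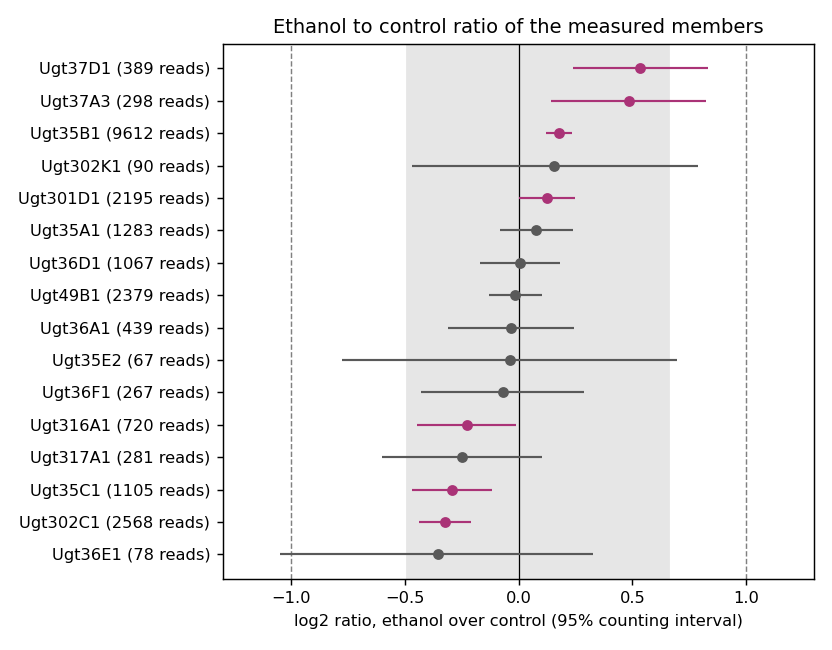
Log2 ratio of ethanol over control for the 16 measured members with 95% counting intervals, ordered by ratio, with the reads over both libraries beside each name; intervals that exclude 0 are purple, the grey band is the range from the 5th to the 95th percentile of other measured genes (-0.49 to 0.66), and dashed lines mark 2-fold. All 16 points lie inside the 2-fold lines, from Ugt36E1 at -0.35 to Ugt37D1 at 0.53.

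The sum over the family depended on its most abundant member. All members together had 993 RPM in the control library and 1023 after ethanol, a log2 ratio of 0.043 (interval 0.0053 to 0.080). Without Ugt35B1 the sums were 597 and 574 and the log2 ratio was -0.055 (-0.10 to -0.0058), so the direction of the sum turned. Without Ugt302C1 the log2 ratio was 0.088 (0.049 to 0.13). The median over all measured genes was 0.049. The 3 other scalings lower every log2 ratio by a fixed amount, which took that of Ugt35B1 from 0.18 to between 0.11 and 0.15. By that shift the interval of the family sum would include 0 under each of them. The sum without Ugt35B1 would stay below 0. The direction of the family sum is therefore not settled.

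**Figure D4:**
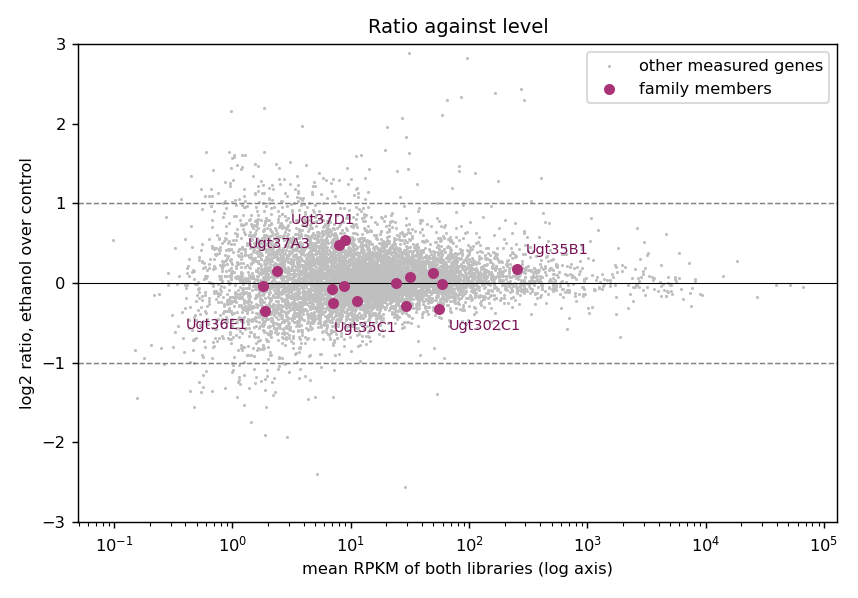
Log2 ratio of ethanol over control against the mean RPKM of both libraries on a log axis, for the 16 measured members (purple) and all other measured genes (grey); dashed lines mark 2-fold, and 2 genes beyond a log2 ratio of 3 in either direction are not shown. The members lie within the cloud of other genes at every level, and Ugt35B1 is the most abundant of them.

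Ugt35B1 and the measured marker genes of the antenna had ratios in opposite directions, but the family went both ways. Of its 16 measured members, 7 had ratios above 1 and 9 below. The 9 included Ugt302C1 (log2 ratio -0.32), Ugt35C1 (-0.29) and Ugt36E1 (-0.35, with an interval that included 0). Of 9 measured antennal markers, all 9 had ratios below 1, and for 6 the interval excluded 1, with a median log2 ratio of -0.73. Among all 7822 measured genes, 3362 had ratios below 1, and 15.0% had an interval below 1. Their listed members summed to 177 RPM in the control library and 89.3 after ethanol, whereas Ugt35B1 was higher in the ethanol library. The antennal gene a10 had 519 and 186 reads (log2 ratio -1.39), and the odorant-binding protein gene Obp83a had 499 and 251 (-0.90). The receptor genes of the list differed among themselves. For the co-receptor gene Ir25a, with 87 and 80 reads, the log2 ratio was -0.028 (-0.48 to 0.43). For Ir76b, with 108 and 64 reads, it was -0.66 (-1.13 to -0.20). The odorant co-receptor gene Orco, with 10 and 6 reads, and Ir8a, with 5 and 4, were under the minimum, as was the binding protein gene lush with 0 and 2. Per length, Ugt35B1 alone stood at 238 RPKM in the control and 269 after ethanol, beside 268 and 126 RPKM for the sum of the list's 12 genes. Markers of other cell types leaned down in part. Intervals below 1 were found for 6 of 9 measured fat body markers, with 2 above. The same held for 3 of 5 hemocyte markers, with 1 above, and for 3 of 4 of the Malpighian tubule. All 4 tubule and all 3 gut markers had ratios below 1. Glia had 4 of 7 intervals above 1 and 1 below, and neurons and eye went both ways. The medians of these lists ran from -0.31 (hemocytes) to 0.17 (glia). The part of the antennal markers in the ratios of family members was not tested.

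Ugt36E1 (2L), which has been studied in olfactory neurons, was counted on a small part of its transcript. Its only accession with reads, NM_165263, had 45 control and 33 ethanol reads on a transcript of 1810 nt, of which 13.2% and 14.9% was covered. Other genes with 1 annotated transcript and a similar number of reads per kilobase (within 20%) had a median coverage of 77.5% in the control (173 genes), and 0.578% of them were covered less. Ugt302K1, with 44 control reads, was covered over 85.8%. Of the 4 annotated Ugt36E1 transcripts, none has more than 0.158% of its bases to itself in the Release 6 annotation. Dividing by the covered stretch in place of the whole transcript would put Ugt36E1 at 16.0 RPKM in the control and 11.1 RPKM after ethanol, instead of 2.11 and 1.65.

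Ugt37D1, the member with the highest ratio among those measured, had the same feature. NM_144370 was covered over 15.7% in the control library and 17.7% after ethanol, where similar genes had medians of 93.4% and 95.8%. Those similar genes again had 1 annotated transcript each, and genes with several overlapping transcripts were not compared. NM_165193 was covered over 13.2% and 16.5%. The annotated transcripts of Ugt37D1 have at most 1.02% of their bases to themselves. The ratio of 1.45 is therefore that of a short stretch of the gene. Divided by the covered stretch alone, NM_144370 would stand at 34.8 RPKM in the control and 46.8 after ethanol, in place of 5.46 and 8.27, which is in the range of the 6 most abundant members. The place of Ugt37D1 in the order of levels thus depends on the length used. Ugt50B3, with 22 and 18 reads listed under 1 of 5 annotated transcripts, was covered over 28.9% and 20.1%, and similar genes had medians of 50.9% and 44.5%. The accessions of all other members with at least 10 reads in a library were covered above the 5th percentile of similar genes there. Ugt36D1, whose 4 annotated transcripts have at most 7.37% of their bases to themselves, was covered over 95.5% in the control. The sources used here do not say how reads shared by transcripts were counted.

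**Figure D5:**
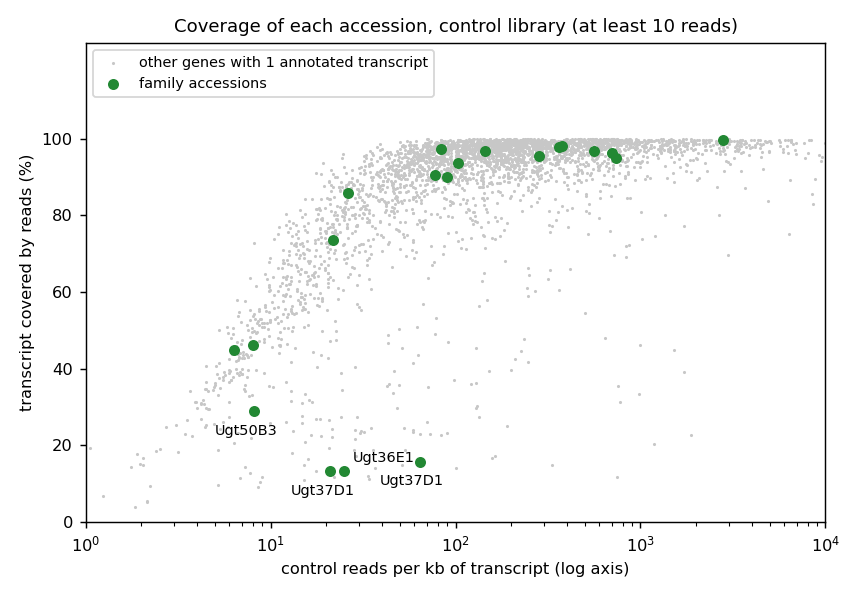
Share of each transcript covered by control reads (percent) against control reads per kilobase (log axis) for family accessions with at least 10 control reads (green) and for other genes with 1 annotated transcript (grey). The accessions of Ugt36E1 (13.2%) and Ugt37D1 (15.7% and 13.2%) lie far below genes of similar depth, and Ugt50B3 (28.9%) lies lower than most.

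Genes that supply the sugar donor went in both directions. Among 8 measured genes of UDP-sugar supply, 1 was at least 1.5-fold higher and 0 lower, beside 5.97% and 2.86% of all measured genes, and the median log2 ratio was -0.014. UGP, which makes UDP-glucose, the sugar donor, had 144 and 203 reads listed under 1 of its 4 annotated transcripts (log2 ratio 0.59, interval 0.27 to 0.91). Its ratio of 1.504 only just passed the 1.5-fold level. The 3 other scalings lower every log2 ratio by a fixed amount, as for Ugt49B1 from -0.015 to between -0.079 and -0.040. By that shift UGP would fall under 1.5-fold with each of them. Pgm1, which makes the sugar phosphate that UGP uses, had 8843 and 7304 (-0.18, -0.23 to -0.14). sgl, which turns UDP-glucose into UDP-glucuronic acid, had 714 and 725 (0.12, -0.036 to 0.27), and Efr, a nucleotide sugar transporter, had 44 and 28 (a ratio of 0.679, interval 0.407 to 1.11).

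A list of possible conjugate exporters held 6 measured genes of ABC and organic anion transporters, and what they carry in the fly head was not tested. All 6 had ratios below 1, as had 3362 of the 7822 measured genes. The median log2 ratio of the 6 was -0.51, beside 0.049 for all measured genes. None of the 6 passed the 1.5-fold rule (2.86% of measured genes did so on the lower side). Of these 6, 66.7% lay within 1.5-fold, beside 90.2% of all measured genes. Mdr65, an ABC transporter of the blood-brain barrier, had 1625 and 1040 reads (0.683, 0.631 to 0.738), the only interval among the 6 that excluded 1. That is 16.7% of the 6, close to the 15.0% of all measured genes with an interval below 1. The ABC transporter gene MRP had 33 and 17 reads (0.550, 0.287 to 1.02), and the organic anion transporter gene Oatp58Dc had 36 and 21 (0.622, 0.345 to 1.10). Both lay close to the minimum of 50 reads, with intervals that included 1. Mdr50, under the minimum of 50 reads, went the other way with 0 and 10 reads, and the interval of its ratio began at 2.39. The list's other genes under the minimum went both ways, with intervals that included 1. Oatp74D (5 and 7 reads), Oatp26F (6 and 6) and a further gene of the list (10 and 15) had ratios above 1. Oatp30B (14 and 11) and Oatp58Db (2 and 1) had ratios below 1. The glucuronide-splitting enzyme gene betaGlu had 184 and 174 reads (log2 ratio 0.013, -0.29 to 0.32).

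Of the regulators of detoxification genes, 4 were measured and all had intervals that included 1. The stress-response factor gene cnc, the fly counterpart of Nrf2, had 446 and 419 reads (log2 ratio 0.0031, -0.19 to 0.20). Its partner maf-S had 1200 and 1179 (0.068, -0.049 to 0.18), and the xenobiotic receptor gene Hr96 had 414 and 353 (-0.14, -0.35 to 0.072). Keap1, which encodes the inhibitor of cnc, had only 16 and 12 reads.

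The other detoxification families each held genes with larger ratios. Of 63 measured cytochrome P450 genes, 0 were at least 2-fold higher and 1 lower, and the median log2 ratio was 0.042. The lower one was Cyp4g1, known from oenocytes, where it makes cuticular hydrocarbons, with 60 and 2 reads. At 1.5-fold, 2 of the 63 were higher and 2 lower (3.17% each, beside 5.97% and 2.86% of measured genes). The higher ones were Cyp313b1 (21 and 38 reads, ratio 1.93, 1.10 to 3.46) and Cyp4p1 (1421 and 2058 reads, 1.54, 1.44 to 1.65). The lower ones were Cyp4g1 and Cyp318a1 (47 and 25 reads, 0.567, 0.335 to 0.941). Of 26 measured glutathione S-transferase genes, 1 was higher (GstE8, 33 and 62 reads) and 1 lower (GstE4, 84 and 15 reads), with a median of 0.098. At 2-fold, 1.75% of all measured genes were higher and 0.741% lower, so counts this small do not set these families apart. With an interval that excludes 1 at any fold, 13 of the 63 P450 genes were higher and 12 lower, and 11 of the 26 glutathione S-transferases were higher and 4 lower. The shares among all measured genes were 23.9% and 15.0%. The difference between the families has no test, since each rests on the same pair of libraries.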

How the data were processed

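Fly head poly(A) RNA was sequenced in 1 control and 1 ethanol library with the TruSeq RNA kit, per the labels' protocols. The submitters' processing notes name the genome build BDGP 5. The sources used here do not give the aligner, the counter, the strand setting or the test behind the deposited p-values. For each RefSeq accession the authors deposited a read count (uniquely assigned reads), the covered percent of the transcript and RPKM, per the file headers. A table of both samples adds the authors' log2 ratio, p-value and FDR, and writes RPKM of 0 as 0.001.

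Of 15090 accessions, 14521 matched the Release 6 annotation, from which only names, gene order and transcript overlap were taken, since its build differs. Reads and RPKM were summed per gene. Measured genes had at least 50 reads over both libraries. Ratios carry exact 95% Clopper-Pearson intervals and RPKM exact Poisson intervals. A call needed 2-fold or 1.5-fold and an interval without 1. Replicate tests do not exist with 1 library per group, and edgeR 4.0.16 served only for TMM scaling. The members and lists were chosen with earlier results of these data known. Named with full values were members past 1.5-fold, the 6 most abundant, those with antennal or behavioural roles, members a result turns on, and the largest ratios of each related list. Left out were 2 cyclophilin genes whose symbols resemble cytochrome P450 genes, and 1 antennal entry had no match. Ugt36A1, Ugt307A1, Ugt36E1, Ugt50B3 and Ugt49B1 overlap another annotated gene, whose reads cannot be told apart from theirs without strand. Sequences of members were not used here. The scripts' functions were tested on simulated data. The alternatives were 3 scalings (TMM, median of ratios, totals without the 10 most abundant genes), minimums of 20, 200 and 1 read, pseudocounts of 1 RPKM and 0.1 RPKM, an interval leaving 0.1% outside, lowess trends (fraction 0.3) on level or length removed, genes with 1 accession, and transcripts taken singly. Python 3.11.15, scipy 1.17.1 and statsmodels 0.14.6 were used.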

Additional observations from a re-analysis of the deposited data

How the results depend on the processing

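Under 11 of the 13 alternatives, 0 members differed by 1.5-fold or 2-fold. With a minimum of 1 read, which admits genes with few reads, 1 member was higher (Ugt37C2) and 1 lower (Ugt37B1) at either fold. With transcripts taken singly, 1 accession passed 1.5-fold (NM_144370 of Ugt37D1). With an interval leaving 0.1% outside, members with an interval above 1 numbered 2 in place of 4, as Ugt301D1 and Ugt37A3 no longer counted, and Ugt316A1 no longer had one below 1. Ugt301D1 also lost its interval above 1 under all 3 scalings (log2 ratio 0.059 to 0.098), both removed trends and the pseudocount of 1 RPKM, under which Ugt316A1 lost its own too. The member median lay between -0.088 and -0.015. Of the measured members, Ugt36D1 alone changed sign, between -0.060 and 0.0039. Over all genes, the 2-fold split of 137 higher and 58 lower became 103 and 78 with the level trend removed. It became 51 and 8 with the pseudocount of 1 RPKM, 38 and 10 with a minimum of 200 reads, 259 and 127 with 20, and 347 and 202 with 1. No paired analysis was possible because each group has 1 library, and no library could be left out. Depth limits the 13 listed members under 50 reads.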
